A study of Rattus norvegicus with 12 samples.

Results

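The 5 genes described here, which rodent satellite glia are known to use, comprise 2 coding for intermediate filaments (Gfap and Nes) and 3 coding for proteins that clear glutamate or potassium or couple neighbouring cells (Slc1a3, Kcnj10 and Gjb6). They were followed in dorsal root ganglia (DRG) 3 days after local inflammation. The members were the probesets that map to exactly 1 gene symbol, that symbol being one of the 5. Each gene was represented by 1 such probeset, so the set holds 5 of the 7603 probesets with 1 symbol and of the 8260 probesets in all. In LID ganglia (local inflammation of the DRG) both filament genes were higher and all 3 buffering genes lower than in sham ganglia, with Gfap raised 2.49-fold and Gjb6 at 50.9% of its sham level. Within the groups Gjb6 followed the mean of leptomeningeal markers, a list written after its nearest profiles were seen and holding Slc6a13 from among them. Means of fibroblast, Schwann cell and macrophage markers and of IL-6 family genes also correlated with Gjb6, and neuron markers inversely. With the leptomeningeal mean as a covariate the difference of Gjb6 went from -0.98 to -0.36 on the log2 scale.

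A total of 6 sham and 6 LID ganglia gave 1 array apiece, all of them L5 DRGs of adult male Sprague Dawley rats taken on post-operative day (POD) 3. In the LID group, the yeast wall preparation zymosan (10 µl at 2 mg/ml, with incomplete Freund's adjuvant as vehicle) was placed onto the ganglion, beneath the intervertebral foramen. Sham rats had the same incision and exposure of the foramen without injection, so that zymosan, adjuvant and the injection itself cannot be told apart. Because each array was made from a whole ganglion, fewer cells of a type and less RNA per cell cannot be told apart.

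The values were deposited on a log2 scale with the median of the 12 arrays set to 0 for every probeset. A value of 1.00 therefore lies 2-fold above that median, no level of expression remains, and no gene can be set against another in abundance. The identity of the tissue could not be checked from levels for the same reason. Sham replicate 2 stood apart from the other arrays: the median of 954 probesets for olfactory, vomeronasal and trace amine receptors, which a ganglion is not known for, was 0.22 in this array and between -0.08 and 0.07 in the other 11 arrays. The comparisons that follow were also computed without it.

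Satellite glia wrap the cell bodies of sensory neurons in a closed sheath. They take up glutamate and potassium released around the neuron and pass small molecules to one another through gap junctions. After nerve injury or inflammation, satellite glia of rodents are known to increase the filament protein GFAP and to change their coupling, which is often called activation. In whole ganglia none of these genes belongs to satellite glia alone: nestin is also found in blood vessels and Schwann cells, and connexin 30, the product of Gjb6, is also made by leptomeningeal cells.

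The start regions of Gfap and of the buffering genes Kcnj10 and Gjb6, on which most of the results turn, are shown first, so that genes that moved in opposite directions can be compared. The sequences are the 250 bases before the annotated start in the RefSeq annotation of GRCr8, which is a later build than the rn4 of the deposited labels, and all 5 genes had an entry. They lie at chr10:88361662-88361911 (minus strand) for Gfap, chr13:87334260-87334509 (plus strand) for Kcnj10 and chr15:35410139-35410388 (minus strand) for Gjb6. Capitals mark matches to a STAT motif in Gfap and to the GC box in Kcnj10 and Gjb6.
Gfap: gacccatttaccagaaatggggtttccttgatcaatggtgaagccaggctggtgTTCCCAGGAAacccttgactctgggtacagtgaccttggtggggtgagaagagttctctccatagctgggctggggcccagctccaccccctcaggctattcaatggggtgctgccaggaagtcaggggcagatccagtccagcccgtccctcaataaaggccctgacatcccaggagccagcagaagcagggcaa
Kcnj10: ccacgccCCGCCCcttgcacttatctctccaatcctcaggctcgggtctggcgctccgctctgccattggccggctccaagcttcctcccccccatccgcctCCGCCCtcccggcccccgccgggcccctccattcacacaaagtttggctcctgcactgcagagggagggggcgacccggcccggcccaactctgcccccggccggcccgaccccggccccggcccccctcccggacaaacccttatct
Gjb6: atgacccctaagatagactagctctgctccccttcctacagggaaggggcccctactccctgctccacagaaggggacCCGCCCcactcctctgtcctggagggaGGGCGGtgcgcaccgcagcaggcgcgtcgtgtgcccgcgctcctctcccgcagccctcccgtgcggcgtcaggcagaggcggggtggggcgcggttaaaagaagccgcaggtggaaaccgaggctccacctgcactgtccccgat

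Windows of 300 bases (250 before and 50 after the start) were searched on both strands for TTCNNNGAA and TTCNNNNGAA (STAT, with a spacer of 3 or 4 bases), TGANTCA (AP-1), the TATA box with the letters TATAAA, the GC box with the letters GGGCGG and the CCAAT box. The Gfap window held TTCNNNNGAA at position -196 and none of the other 5 motifs. This motif was present in 7.28% of the 33469 promoters of the annotation. In Kcnj10 the GC box was found at -243 and -148 and the CCAAT box at -222 and -185, and in Gjb6 the GC box was found at -172 and -145. The GC box occurs in 33.1% of all promoters and the CCAAT box in 37.5%.

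A second annotated start of Gjb6 had TTCNNNNGAA at -132 and a GC box at -102. Nes had GC boxes at -54 and -43, and the 3 overlapping windows of Slc1a3 held none of the 6 motifs. The STAT motif with 3 spacer bases, the AP-1 motif and the TATA box, present in 8.87%, 7.33% and 14.2% of all promoters, matched no window of the 5 genes. No 2 matches shared bases. The letters G and C made up 57.6% of the 250 bases before the Gfap start, 72.4% for Kcnj10 and 68.0% for Gjb6. The matches describe letters only.

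Gfap, the filament protein by which activated satellite glia are usually recognized, showed the greatest difference of the 5 genes. Its values ran from -1.11 to -0.38 in sham arrays with a median of -0.71, and from 0.38 to 0.82 in LID arrays with a median of 0.52. The groups did not overlap, and the lowest LID array (replicate 3) lay 0.38 above the median of all arrays while the highest sham array (replicate 1) lay as far below it, a symmetry that follows from setting the median of 12 arrays to 0. The difference in means was 1.32 on the log2 scale (SE 0.12), which is 2.49-fold (95% confidence interval 2.09 to 2.98; adjusted p = 2.17e-05, limma, n = 6 per group). By size it ranked 39 among all 8260 probesets and by p-value 19. The spread was narrower in LID (SD 0.147) than in sham (SD 0.286), where replicates 4 and 5 were lowest at -1.11 each.

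Nes codes for nestin, a filament of progenitor cells that is also seen in reactive glia. Its values ran from -0.33 to 0.05 in sham (median -0.19) and from -0.05 to 0.42 in LID (median 0.29). Here 2 arrays crossed, sham replicate 1 at 0.05 and LID replicate 6 at -0.05, and the other 5 of each group lay apart. The difference was 0.44 (SE 0.08), or 1.36-fold (1.20 to 1.53; adjusted p = 0.00216, limma), which is about the size of the changes of the buffering genes Slc1a3 and Kcnj10 in the other direction.

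**Figure D1:**
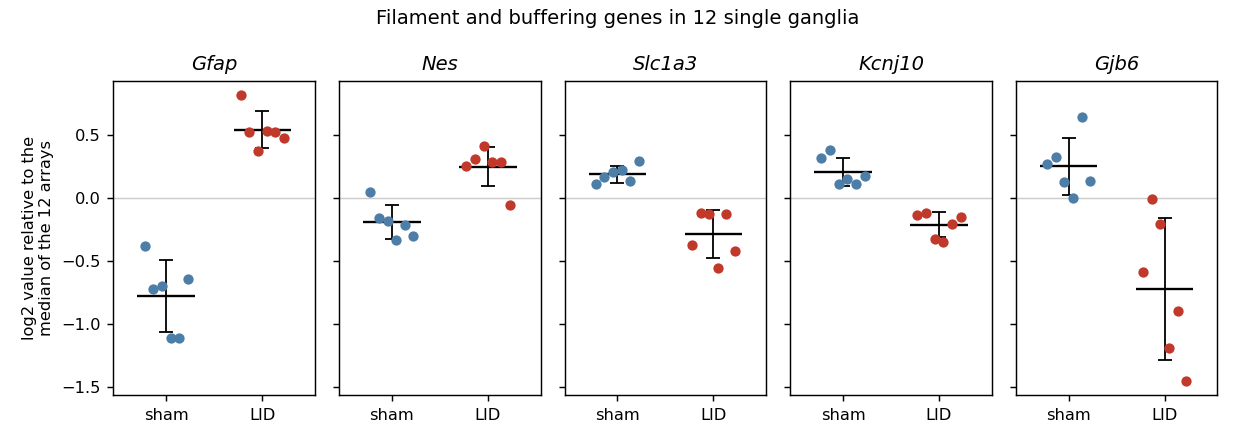
The plot of the 5 genes shows the log2 value of each array relative to the median of the 12 arrays (vertical axis), with 6 sham points in blue, 6 LID points in red, the group mean as a bar and the SD as error bars. Gfap and Nes are higher in LID and Slc1a3, Kcnj10 and Gjb6 lower, and the LID arrays of Gjb6 spread from -1.45 to -0.01.

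Slc1a3, the glutamate transporter GLAST, ran from 0.11 to 0.30 in sham (median 0.19) and from -0.56 to -0.11 in LID (median -0.25). The groups did not overlap. LID arrays fell into a lower trio (replicates 1, 4 and 6 at -0.37, -0.56 and -0.42) and an upper trio between -0.12 and -0.11. The difference was -0.48 (SE 0.08), so that LID ganglia held 71.9% of the sham level (64.0 to 80.9; adjusted p = 0.00118, limma). The SD in LID (0.190) was 2.81 times that in sham (0.0676).

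Kcnj10 codes for Kir4.1, the inward rectifier through which satellite glia take up potassium. Its values ran from 0.11 to 0.38 in sham (median 0.17) and from -0.35 to -0.11 in LID (median -0.17), again without overlap. The difference was -0.42 (SE 0.06), leaving 74.7% of the sham level (68.0 to 82.0; adjusted p = 0.000605, limma). The spread was alike in both groups, with SDs of 0.113 and 0.0996. The 2 highest sham arrays were replicates 1 and 2, at 0.32 and 0.38.

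Kcnj10 followed the receptor median of the arrays more closely than the other 4 genes. After the group means were taken out, its correlation with that median over the 12 arrays was 0.81 (0.87 within sham and 0.76 within LID), against 0.19 to 0.36 for the others. Without sham replicate 2 it was 0.76, against 0.42 to 0.56 for the others, and within LID Gjb6 (0.74) and Slc1a3 (0.67) lay close to Kcnj10. These values describe arrays that share 1 normalization. With the receptor median as a covariate the difference of Kcnj10 was -0.39 (adjusted p = 8.99e-05, limma), and without sham replicate 2 it was -0.39 as well.

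Gjb6, the gap junction protein connexin 30, showed the largest decrease of the 3 buffering genes and the widest spread. Sham values ran from 0.01 to 0.65 (median 0.21). The LID values were -0.58, -0.01, -0.21, -1.19, -0.89 and -1.45 in replicates 1 to 6. The groups did not overlap, but by a narrow margin, since sham replicate 4 (0.01) and LID replicate 2 (-0.01) were neighbours on either side of the median. The difference was -0.98 (SE 0.22), or 50.9% of the sham level (36.7 to 70.5; adjusted p = 0.00707, limma). The SD in LID (0.562) was 2.50 times that in sham (0.225). Leaving out 1 array at a time moved the difference between -1.12 (without LID replicate 2) and -0.83 (without LID replicate 6), and it stayed past the threshold each time (largest adjusted p 0.0174, limma). Under Benjamini-Yekutieli adjustment, which allows for any dependence between probesets, Gjb6 alone of the 5 missed the threshold (adjusted p = 0.0679, limma). The setting that moved its value most, chosen after the data were seen, was the mean of leptomeningeal markers as a covariate, with a difference of -0.36.

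All 5 genes were past an adjusted p of 0.05, where 19.4% of all 8260 probesets were (1601 probesets). Both filament genes were among the 7.66% of probesets that were higher in LID, and the 3 buffering genes among the 11.7% that were lower. The groups did not overlap for 4 of the 5, against 10.0% of all probesets, and 2 of the 5, Gfap and Gjb6, were among the 2.99% that were past the threshold with over 1.5-fold difference. The genes were proposed with earlier results of these arrays known, so these shares describe the set and nothing can be read from their height. An exact permutation test of each gene over all 924 assignments of the arrays gave p = 0.00216 for Gfap, Slc1a3, Kcnj10 and Gjb6, the smallest value that 6 against 6 arrays allow, and p = 0.00433 for Nes.

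The other markers of satellite glia did not move as a block. Of 13 genes on the list, 8 were measured by a probeset with 1 symbol. Among these 1 was higher, 1 was lower and 6 were not past the threshold, next to 7.66% higher and 11.7% lower over all probesets. The median difference was 0.01, next to a median of -0.02 over all probesets. Erbb3, a receptor for neuregulin, was higher by 0.23 (SE 0.05) and Ptprz1, a receptor phosphatase, was lower at -0.23 (SE 0.05). Of the defining markers, the fatty acid binding protein Fabp7 was at -0.26 (adjusted p = 0.425, limma), the connexin gene Gja1 at 0.06, the transcription factor Sox10 at 0.01 and S100b at -0.09, none of them past the threshold. Another defining marker, Glul, was not among the probesets with 1 symbol. Fabp7 varied widely, from -0.44 to 0.42 in sham and from -0.79 to 0.29 in LID.

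Among 15 measured genes of intermediate filaments (of 17), 5 were higher and 1 lower, next to 7.66% and 11.7% of all probesets. The 5 include Gfap and Nes, and the median difference was -0.01. Desmin (Des), a filament of muscle cells and pericytes, was next to Gfap with a difference of 0.94 (SE 0.12). It ran from -0.69 to -0.17 in sham and from 0.17 to 0.80 in LID without overlap. Lamin A (Lmna) was higher by 0.31 and vimentin (Vim), the partner of Gfap in glial filaments, by 0.23. The neuronal filament Ina was lower at -0.22 (SE 0.06), and the neurofilament genes were not past the threshold.

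Reactive glia were represented by 19 measured genes of a list of 26, drawn up mainly from reactive astrocytes of the mouse, to which Gfap, Nes and Vim also belong. In this list 9 were higher, 0 lower and 10 not past the threshold, next to 7.66% higher and 11.7% lower over all probesets. The 9 include Gfap, Nes and Vim, and the median was 0.31. Gfap led, followed by ceruloplasmin (Cp), a copper-binding ferroxidase, at 1.26 (SE 0.13, 2.39-fold), which ran from -0.89 to -0.28 in sham and from 0.28 to 0.87 in LID. The membrane protein Emp1 followed at 0.99 (SE 0.18), and the protease inhibitors Serpina3n and Timp1 were higher by 0.78 and 0.54. Cp, Serpina3n and Timp1 are also known from other cells of inflamed tissue.

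The IL-6 family signals through gp130 and STAT3, a pathway known to act on the Gfap gene in rodent astrocytes. Of 18 measured genes (of 20), 7 were higher and 1 was lower, next to 7.66% and 11.7% of all probesets, with a median of 0.19. The oncostatin M receptor Osmr was higher by 0.57 (SE 0.13), the kinase Jak2 by 0.52 (SE 0.07), the ligand Lif by 0.46 (SE 0.12) and Stat3 itself by 0.16 (SE 0.03), and Cntfr, which binds ciliary neurotrophic factor, was lower at -0.33 (SE 0.07). Osmr and Jak2 did not overlap between groups, with sham arrays at or below -0.11 for Osmr and -0.15 for Jak2. Leaving out sham replicate 2 gave smaller differences, 0.44 (SE 0.06) for Osmr and 0.46 (SE 0.06) for Jak2. Without sham replicate 2 and LID replicate 2 together, Lif was no longer past the threshold (adjusted p = 0.0540, limma). Socs3, a feedback inhibitor of the pathway, had a difference of 0.66 and was not past it.

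**Figure D2:**
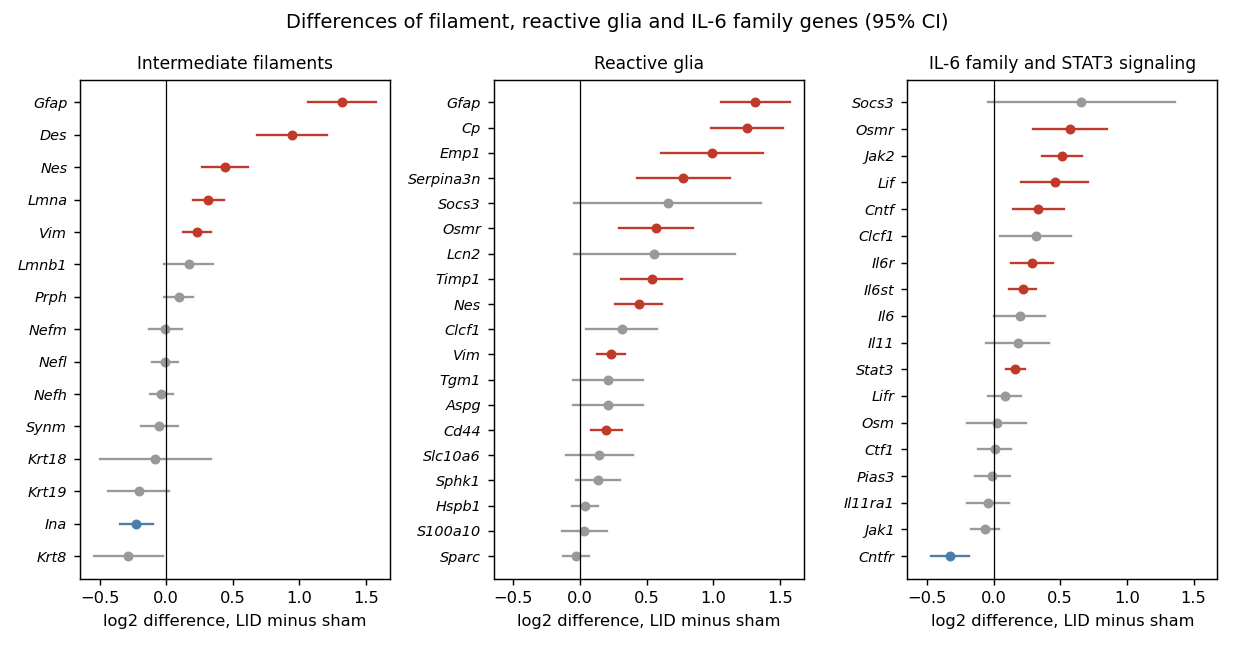
The plot of the filament, reactive glia and IL-6 family lists gives each measured gene's log2 difference, LID minus sham (horizontal axis), as a point with its 95% confidence interval, red where higher and blue where lower at an adjusted p under 0.05 and grey otherwise. Gfap, Cp and Emp1 lie furthest to the right, and the 2 blue points, left of 0, are the filament gene Ina and the IL-6 family gene Cntfr.

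Of 12 measured genes of glutamate uptake and metabolism (of 15), 2 were higher, 2 lower and 8 not past the threshold, next to 7.66% higher and 11.7% lower over all probesets, and the median difference was -0.00437. Beside Slc1a3, the glutamine transporter Slc38a3 was lower at -0.45 (SE 0.10), with sham arrays from -0.01 to 0.48 and LID arrays from -0.49 to 0.01. Slc1a5, which exchanges neutral amino acids, was higher by 0.37 (SE 0.10) and the glutamine transporter Slc38a2 by 0.15 (SE 0.04). The call for Slc38a2 was lost in 3 of 12 fits that left out 1 array and with the replicate number as a block. The other glial glutamate transporter, Slc1a2, had a difference of -0.15 (SE 0.09) and was not past the threshold.

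In the potassium list 20 of 28 genes were measured, 0 were higher and 5 lower, next to 7.66% and 11.7% of all probesets, and the median difference was -0.03. The inward rectifiers Kcnj6, Kcnj3 and Kcnj12 were lower with Kcnj10, at -0.40 (SE 0.10), -0.39 (SE 0.07) and -0.27 (SE 0.08). Kcnj6 and Kcnj3 code for channel subunits opened by G proteins that are best known from neurons. Dystrophin (Dmd), part of the complex that anchors Kir4.1 in glial membranes, had the largest difference at -0.60 (SE 0.18) but was lost in 6 of the 12 fits that left out 1 array. Kcnj16, whose Kir5.1 subunit pairs with Kir4.1, was at 0.10 (SE 0.20) and the water channel Aqp4 at -0.16, neither past the threshold. Kcnj9, which lies beside Kcnj10 on chromosome 13, was at 0.08 (SE 0.09).

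Of 12 measured connexins and pannexins (of 23), 1 was higher and 2 were lower, with a median of -0.05, which is near the 7.66% and 11.7% over all probesets. Gjb6 stood first in this list by size. The other 2 calls were small and depended on single arrays: the vascular connexin Gja4 was higher by 0.23 (SE 0.07) and the call was lost in 5 of 12 fits without 1 array, and Panx2 was lower at -0.22 (SE 0.07) and was lost in 9 of 12 and under the replicate block. Gjb2, the neighbour of Gjb6 on chromosome 15 and its usual partner in mixed gap junctions, was at -0.06 (SE 0.13), and Gja3, also close by, at -0.17 (SE 0.09), neither past the threshold. Cryl1, a metabolic enzyme 2 protein-coding genes from Gjb6 on the other side, was lower at -0.34 (SE 0.04; adjusted p = 0.000274, limma).

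**Figure D3:**
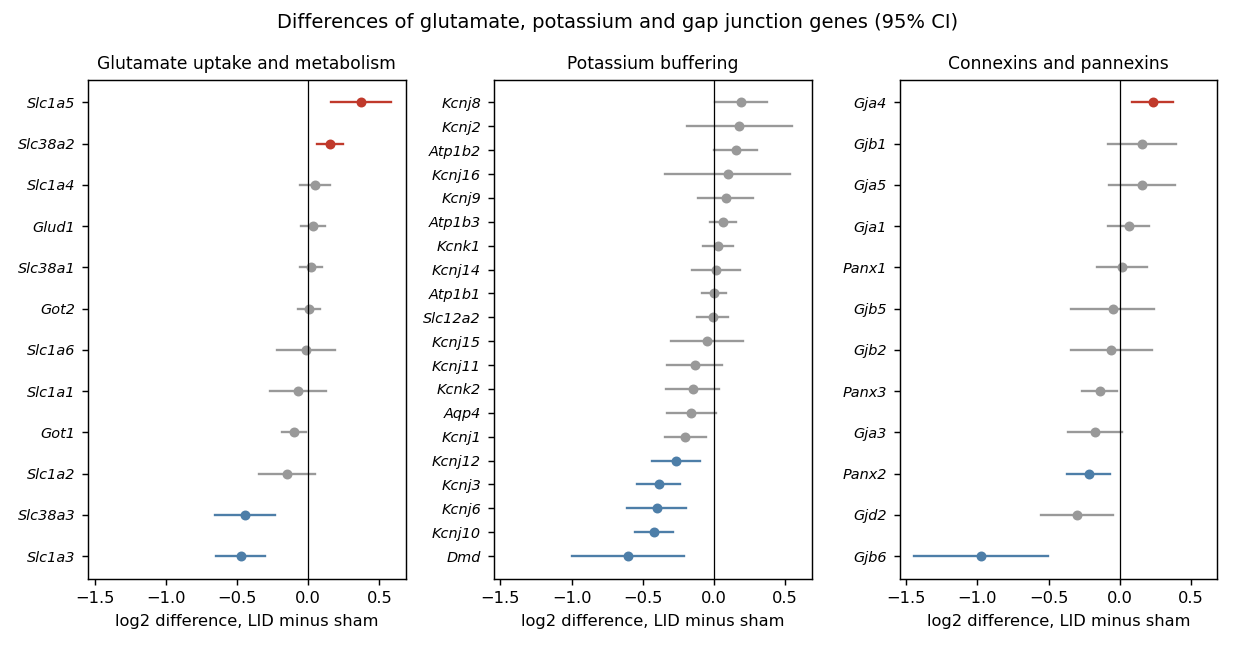
The plot of the glutamate, potassium and connexin lists gives each measured gene's log2 difference, LID minus sham (horizontal axis), with its 95% confidence interval, red where higher and blue where lower at an adjusted p under 0.05 and grey otherwise. Slc1a3 is lowest in the first panel at -0.48, Kcnj10 follows Dmd in the second, and Gjb6 at -0.98 lies apart in the third.

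Markers of other cells were read on the same arrays. Macrophage markers were higher for 5 of 6 measured genes (of 10), next to 7.66% higher and 11.7% lower over all probesets. Their median difference was 1.13, and their mean ran from -0.80 to -0.13 in sham and from 0.17 to 0.75 in LID. Lyz2, the lysozyme of phagocytes, led with a 2.82-fold difference. Of 9 probesets for 8 measured markers of myelinating Schwann cells (of 10), 0 were past the threshold, as were 0 of 2 for endothelial cells (of 6), 0 of 4 for fibroblasts (of 6) and 0 of 2 for central astrocytes (of 5), with medians of -0.02, 0.06, 0.22 and -0.15. Of 9 measured sensory neuron markers (of 12), 0 were higher and 2 lower (Ntrk3 at -0.33 and Ntrk2), with a median of -0.04, and neither was past the threshold without sham replicate 2 and LID replicate 2. The part of macrophages in the differences of the 5 genes was not tested.

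Whether the 5 genes varied together from ganglion to ganglion was examined within each group of 6 arrays, since the group difference alone would set the sign of a pooled correlation. The 10 pairs, and each gene against the macrophage mean, gave 30 relations in the 2 groups. None was past the threshold after Benjamini-Hochberg adjustment (lowest adjusted p 0.625, exact permutation test of Pearson's r), and 1 had an unadjusted p under 0.05. Where a value is given without the 2 farthest arrays, these are the arrays farthest from the median of 1 gene of the pair. That gene is the one that comes first in the order Gfap, Nes, Slc1a3, Kcnj10, Gjb6, so extremes of the other stay in.

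The filament genes Gfap and Nes had r = 0.70 in sham (rho = 0.49, exact permutation p = 0.104 and 0.356; 0.78 without the 2 farthest arrays) and -0.07 in LID (rho = -0.37, exact p = 0.771 and 0.497). None of these 4 values was past the threshold. In LID the correlation without the 2 arrays farthest from the Gfap median (replicates 1 and 3) was 0.96 over the 4 that were left. Those 4 still held LID replicate 6, whose Nes value of -0.05 lay below all other LID arrays, so the 0.96 rests on that array. Between the buffering genes, Slc1a3 and Gjb6 had r = 0.73 in LID (rho = 0.77, exact p = 0.136 and 0.103; 0.29 without the 2 farthest arrays) and -0.64 in sham (rho = -0.66, exact p = 0.169 and 0.175; -0.99). Their difference between groups was not tested. Kcnj10 and Gjb6 had an r of 0.06 in sham (rho = 0.09, exact p = 0.904 and 0.919) and 0.14 in LID (rho = 0.43, exact p = 0.783 and 0.419). Without sham replicate 2 the sham value was -0.105.

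With the receptor median taken out, the relations of Kcnj10 within LID were of another size. With Gjb6 r was -0.96 (rho = -0.94, r = -0.76 without the 2 farthest arrays), where the deposited values gave 0.14. Permuting the residuals gave p = 0.0097 for r (adjusted p = 0.135) and 0.0167 for rho. With Nes r was -0.97 (rho = -0.94, r = -0.90 without the 2 farthest arrays), where the deposited values gave -0.47. Permuted residuals gave p = 0.0028 for r (adjusted p = 0.0833) and 0.0167 for rho. Neither relation was past the adjusted threshold. Such p-values are not exact, because residuals are not exchangeable. The -0.96 follows arithmetically from the r of 0.14 and the r of Kcnj10 (0.76) and Gjb6 (0.74) with the receptor median. In sham the same pairs were at -0.12 and 0.48.

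Across roles, Nes and Slc1a3 had r = -0.76 in sham (rho = -0.77, exact p = 0.0722 and 0.103; -0.77 without the 2 farthest arrays) and 0.47 in LID (rho = 0.43, exact p = 0.389 and 0.419). Nes and Gjb6, which moved in opposite directions between the groups, had r = 0.73 within LID (rho = 0.71, exact p = 0.0736 and 0.136; 0.32). Gfap and Gjb6, the genes with the largest differences in each direction, had an r of -0.02 within LID (rho = -0.14, exact p = 0.983 and 0.803). The adjusted p of each of these relations was 0.625 or above.

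**Figure D4:**
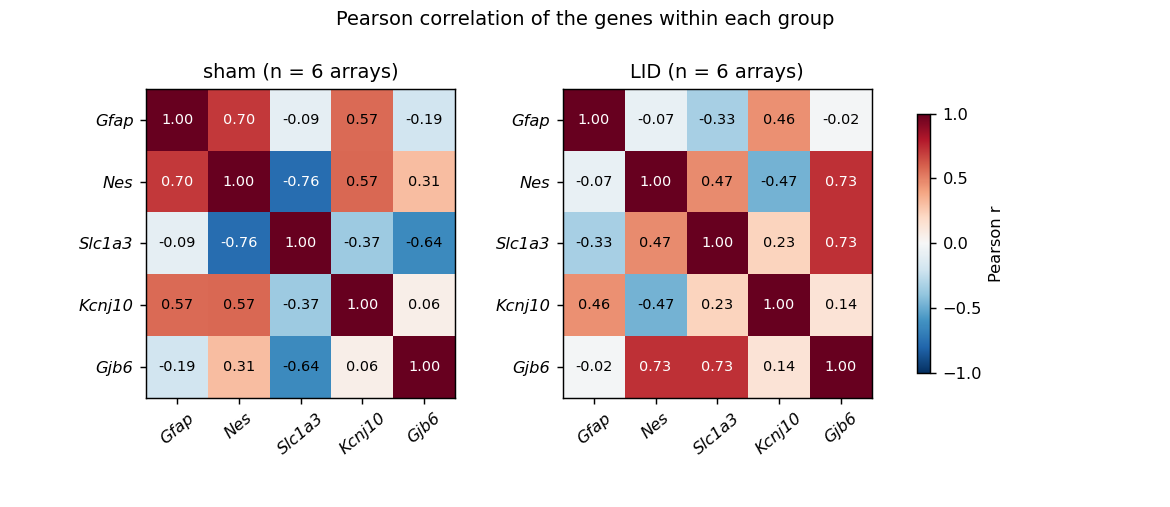
The plot of co-variation gives Pearson's r for each pair of the 5 genes over 6 sham arrays (left) and 6 LID arrays (right), printed in each cell and coloured from blue (-1) to red (1). The pair of Slc1a3 and Gjb6 is at -0.64 in sham and 0.73 in LID, and none of the 10 pairs was past the adjusted threshold in either group.

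The relation with an unadjusted p under 0.05 was that of Gjb6 with the macrophage mean in LID (r = 0.90, rho = 0.94, exact permutation p = 0.0236 and 0.0167; adjusted p = 0.625; r = 0.77 without the 2 farthest arrays). LID replicates 2 and 3, with the highest macrophage means (0.75 and 0.71), had the highest Gjb6, and replicate 6, with the lowest (0.17), had the lowest. The sign is opposite to that between the groups, where macrophage markers were higher and Gjb6 lower in LID. In sham the same relation had lower values (r = 0.48, rho = 0.31, exact p = 0.339 and 0.564). Without sham replicate 2 the sham values were r = 0.68 and rho = 0.90 over 5 arrays (exact permutation p = 0.208 and 0.0833).

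For each gene the 3 most similar profiles among 6648 probesets with 1 symbol were found by Pearson's r over the 12 arrays after the group means were taken out, as a description with no test. They were Brms1 (0.89), Skic2 (0.88) and Dynll2 (0.86) for Gfap, and Zbtb1 (0.92), Cyp1b1 (0.89) and Slc33a1 (0.89) for Nes. For Slc1a3 they were the glucose transporter Slc2a1 (0.88), Tlcd1 (0.86) and Srd5a3 (0.78). Kcnj10 was nearest to Bhlha15, Scgb3a1 and Cort (each 0.96), which dropped to between 0.87 and 0.90 once the receptor median was taken out. Gjb6 was nearest to the endocytic receptor Cubn (0.98), Il10ra (0.94) and the GABA and taurine transporter Slc6a13 (0.94). Between the groups Il10ra went the other way from Gjb6 and was higher in LID by 0.58 (adjusted p = 0.0118, limma). Cubn at -0.10 and Slc6a13 at -0.85 were not past the threshold.

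Slc6a13 is known from the leptomeninges, as connexin 30 is, and a list of 17 leptomeningeal genes was therefore written after the neighbours of Gjb6 and some of these values had been seen. It holds Slc6a13, and also Gjb2 of the connexin list, and it serves as a description only. Of 13 measured genes, 1 was higher, 6 were lower and 6 not past the threshold, next to 7.66% higher and 11.7% lower over all probesets. Their median difference was -0.30. Without sham replicate 2 and LID replicate 2 together, 1 was higher and 5 were lower. Prostaglandin D2 synthase (Ptgds) was lower at -1.20 (SE 0.35), as were claudin 11 (Cldn11) at -0.74 (SE 0.23) and the retinoic acid enzyme Aldh1a2 at -0.56 (SE 0.12), and Crabp2, which binds retinoic acid, was higher by 0.55 (SE 0.09). Slc6a13 itself was at -0.85 (SE 0.32) and not past the threshold. Ptgds was lost in 3 and Cldn11 in 8 of the 12 fits without 1 array.

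The mean of these 13 genes ran from -0.09 to 0.26 in sham and was -0.12, 0.06, -0.00322, -0.52, -0.18 and -0.76 in LID replicates 1 to 6. The order of the 6 LID arrays by this mean was their order by Gjb6. After group means were taken out the correlation of Gjb6 with it was 0.94 (0.83 within sham, 0.95 within LID), and it was 0.91 with Slc6a13 and Gjb2 left out of the mean. Nes and Slc1a3 followed at 0.68 and 0.63, while Gfap and Kcnj10 were at 0.11 and 0.07. Within the groups Nes was at 0.46 in sham and 0.81 in LID. Slc1a3 was at -0.44 in sham and 0.77 in LID, so its sign differed between the groups. The mean of the leptomeningeal markers was not alone in its correlation with Gjb6. Gjb6 was also at 0.80 with the mean of 4 fibroblast markers, 0.72 with the myelinating Schwann cell markers and 0.70 with the macrophage markers. With the mean of the IL-6 family list it was at 0.70, and with the sensory neuron markers at -0.79.

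The leptomeningeal mean was then used as a covariate, an alternative chosen after these values were seen. With it the difference of Gjb6 shrank from -0.98 to -0.36 (SE 0.11, adjusted p = 0.0397, limma). The mean holds Slc6a13 and Gjb2, and the fit was not repeated without them. Under the same covariate Gfap was at 1.36, Nes at 0.60, Slc1a3 at -0.34 (adjusted p = 0.0163, limma) and Kcnj10 at -0.41, all past the threshold. How much leptomeningeal tissue was left on each ganglion is not given by the labels or the methods, and its part in the result for Gjb6 was not tested.

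**Figure D5:**
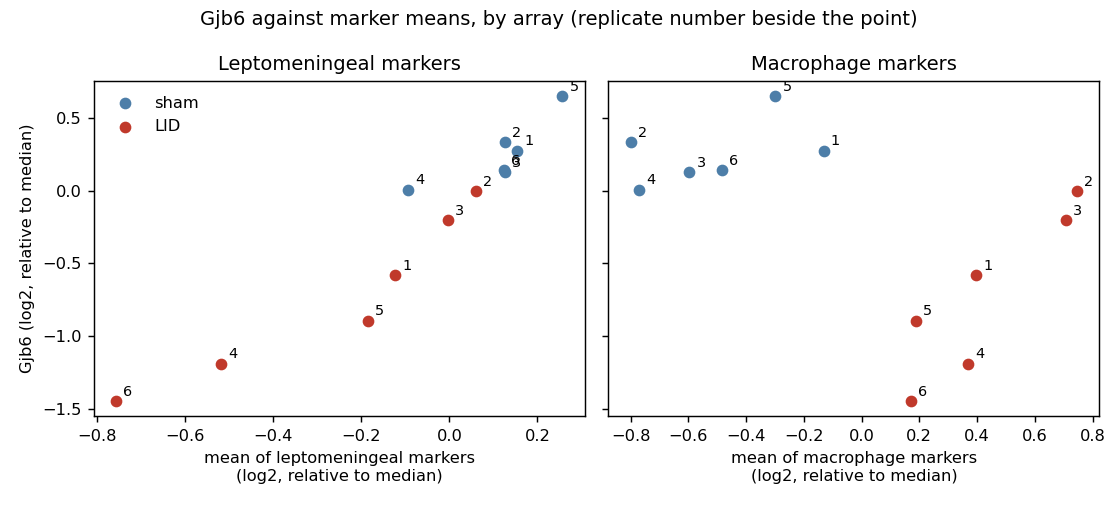
The plot of Gjb6 against marker means shows its log2 value in each array (vertical axis) against the mean log2 value of 13 leptomeningeal markers (left) and of 6 macrophage markers (right), with sham in blue, LID in red and the replicate number beside each point. LID replicates 6 and 4 are lowest for Gjb6 (-1.45 and -1.19) and for the leptomeningeal mean (-0.76 and -0.52).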

How the data were processed

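RNA of single L5 DRGs was hybridized to 12 Affymetrix Rat Exon ST 1.0 arrays. According to the methods and the labels, the authors summarized core probesets with RMA16 in GeneSpring 11.5, quantile normalized them and set each to the median of all samples. The deposited values are therefore log2 values relative to that median, as the zero median of every row shows. The log2 scale rests on the methods, and the depth of an array has no counterpart here, so that the number of arrays limits the precision. RNA came from 1 of 2 kits, which cannot be assigned to samples. Of 8260 probesets, 7603 had 1 gene symbol, 409 several and 248 none in the platform annotation, updated with RefSeq.

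LID and sham were compared with limma 3.58.1 under R 4.3.3 (lmFit, eBayes, two-sided, Benjamini-Hochberg over all 8260 probesets) and no filter. Permutation tests of means and correlations were two-sided and exact, except where residuals were permuted after the receptor median was taken out. Those of means were run in R, and those of correlations used scipy 1.17.1, pandas 2.3.3 and numpy 2.4.6 under Python 3.11.15. Figures used matplotlib 3.10.9. The fits were tested on simulated data. Samples are separate ganglia, and p-values measure the spread between them. The highest correlation between 2 arrays was 0.676, and no arrays were treated as duplicates.

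The members, the gene lists and the tests were chosen with earlier results of these data known, and the leptomeningeal list after its values were partly seen. Named were the 5 genes, up to 3 probesets past the threshold in each direction of a list, the 3 nearest profiles of each gene and 6 defining satellite glia markers, of which 1 is not reported here. Lmna, Vim, Serpina3n, Timp1, Stat3, Socs3, Slc1a2, Kcnj3, Kcnj12, Kcnj16, Kcnj9, Aqp4, Gjb2, Gja3 and Cryl1 were named after their values were seen. Alternatives were robust moderation, array weights, renewed quantile normalization, median centring, fewer probesets, Benjamini-Yekutieli adjustment, the receptor median or leptomeningeal mean as a covariate, a replicate block and leaving out arrays.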

Additional observations from a re-analysis of the deposited data

Results flagged for a closer look

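In groups of 6 arrays, the gap between the most extreme array and its neighbour was compared with the range of the group (Dixon's test). Of 40 groups of values examined, 4 had such an array, and chance alone marks about 1 in 20. Gfap in LID replicate 1 was 0.82, above the other 5 LID arrays, and Nes in LID replicate 6 was -0.0493, below the other 5, which is the array that overlapped with sham. The mean of 2 central astrocyte markers was 0.49 in sham replicate 2. The receptor median was 0.22 in the same array.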

How the results depend on the processing

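The settings counted for the 5 genes include the exact permutation test and leave out the leptomeningeal covariate. Robust moderation, fewer probesets, Benjamini-Yekutieli adjustment, the replicate block and the permutation test keep the log2 difference, so direction could not change there. The 5 genes kept their direction and their side of the threshold in 114 of 115 settings. The exception was Gjb6 under Benjamini-Yekutieli adjustment, with the difference unchanged at -0.98 (adjusted p = 0.0679, limma). The same adjustment, which is stricter by construction, left 620 of 1601 probesets, and of the 82 probesets in the satellite glia, filament, glutamate, potassium, connexin and reactive glia lists it left 10 of 15 higher and 3 of 11 lower. Leaving out 1 array at a time gave 1.25 to 1.40 for Gfap, 0.41 to 0.50 for Nes, -0.51 to -0.42 for Slc1a3, -0.44 to -0.39 for Kcnj10 and -1.12 to -0.83 for Gjb6, and 1261 to 1646 probesets past the threshold. Sox10, at 0.01, turned negative in 5 of these fits, which ranged from -0.0162 to 0.0286. Without sham replicate 2 and LID replicate 2 together, 4 potassium genes and 1 connexin were lower and 10 reactive glia genes higher.

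The leptomeningeal covariate, chosen after seeing the data, moved Gjb6 from -0.98 to -0.36. Of 26 other named genes past the threshold, 0 changed sign in any setting run. A call was lost in 69 of 660 settings of the named genes, among them Osmr, Slc1a5, Slc38a3, Kcnj6 and Ptprz1 under Benjamini-Yekutieli adjustment and Ntrk2 under the replicate block. The 660 include the settings of Fabp7, Gja1, Sox10 and S100b, which had no call to lose. Deviations of arrays with the same replicate number correlated between -0.15 and 0.40 (over 0.1 for 3 of 6 numbers, with a common correlation of 0.228 in limma), and since not every number was over 0.1 they were not taken to pair the samples. With the replicate number as a block, 1680 probesets were past the threshold and the lists held 18 higher and 10 lower. Of the 30 relations between genes, 0 were past the adjusted threshold with Pearson's or Spearman's correlation or without sham replicate 2. With the receptor median taken out, 0 were past it as well. In that setting 5 had an unadjusted p under 0.05, from a permutation of residuals that is not exact. Kcnj10 with Gjb6 in LID went from 0.14 to -0.96. Without levels of expression, signal over background could not be judged.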
